A study of Rattus norvegicus with 6 samples.

Results

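Potassium channel genes were taken as all rows of the deposited count table whose symbol begins with Kcn followed by letters. By symbol these 92 of 31368 genes are pore-forming subunits, accessory subunits, the KCN interacting proteins and Kcnrg, a channel regulator. The deposited annotation labels 1 of them, Kcne3, a long non-coding RNA. Of the 92, 55 had 10 or more counts in 3 or more libraries and are described with values, and 54 of those were tested.

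The samples were renal tissue from male Sprague-Dawley rats labelled WT. They comprised 3 libraries labelled CKD, from a model of chronic kidney disease that was set up at an age of 8 weeks according to the series' design text, and 3 labelled Sham, the controls. How the disease was induced, which part of the kidney was taken and at what age are not given. Total assigned counts ran from 17240755 to 17503644 in CKD and from 15918035 to 17409090 in Sham. Whether each library is a different animal is not stated, and the p-values below rest on the spread among these 6 samples alone, which may be technical.

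Potassium channels set the membrane voltage of tubule cells, return to the blood side the potassium that the sodium pump brings in, and in the distal nephron secrete potassium into the urine. Inward rectifiers (Kcnj genes) and tandem-pore channels (Kcnk genes) conduct at rest, voltage-gated channels open on depolarisation, and calcium- or sodium-activated channels open when those ions rise in the cell. Leukocytes, vascular smooth muscle and fibroblasts use other members of the same family.

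In CKD, 1 of the 54 tested genes passed an adjusted p of 0.05 in edgeR's quasi-likelihood test with Benjamini-Hochberg adjustment over all 15371 genes tested. That gene was Kcna2, a voltage-gated channel subunit (Kv1.2), and it rose. That is 1.85% of the potassium channel genes, where 3.82% of all genes tested were called (2.67% higher, 1.15% lower). The abundant tubular channels Kcnj15, Kcnj16, Kcnj1, Kcnk5 and Kcnk1 did not pass, and their Sham libraries were spread more widely than the CKD libraries. Of the 54 fold changes 26 were above 0 and 28 below, with a median log2 fold change of -0.08, against 49.5% above 0 and a median of -0.01 over all genes. Groups did not overlap in 12 genes that were higher in CKD and 5 that were lower, or 31.5% of the 54, and in 31.2% of all genes tested (18.8% higher, 12.4% lower). Of those 12, Kcne5, Kcnf1 and Kcnmb1 reached 10 counts in CKD libraries only, so the count rule itself favoured a higher level in CKD, and their lack of overlap is a description. Overlap was judged after scaling between libraries, and the 5 lower genes depended on it. In raw counts Kcnt1 (492 in CKD 3, 400 in Sham 3), Kcnj14 (30 in CKD 1, 24 in Sham 3) and Kcnh1 (11 in CKD 1, 8 in Sham 1) overlapped. Kcnj13 tied at 19 in CKD 1 and Sham 1, and Kcnip3 stayed apart. The share of all genes without overlap in raw counts was not computed. An unadjusted p under 0.05 was reached by 9 genes that were higher and 7 that were lower, or 29.6%, and by 23.8% of all genes (13.5% higher, 10.3% lower).

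**Figure D1:**
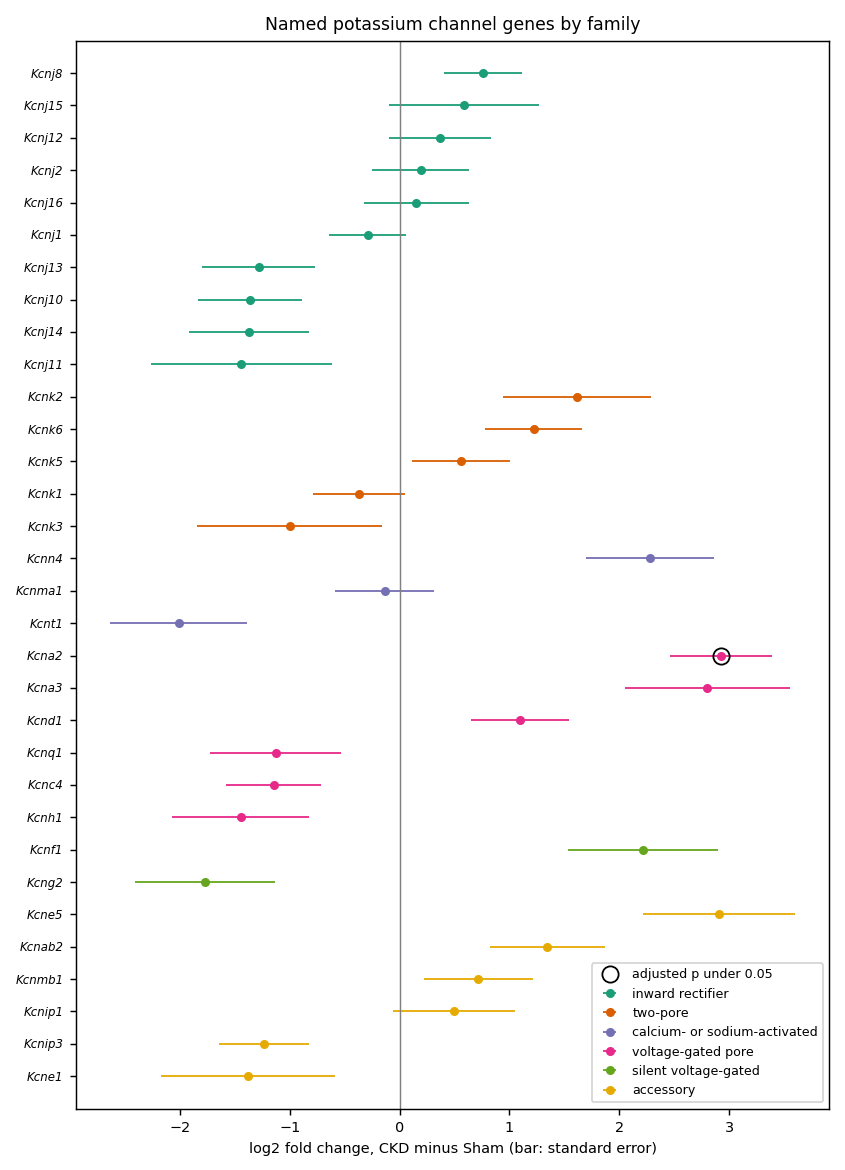
Log2 fold change (CKD minus Sham, horizontal axis) of the 32 named and tested potassium channel genes, grouped by family, with bars for the standard error; a black ring marks an adjusted p under 0.05. Only Kcna2, at 2.92, carries the ring, and Kcnt1, at -2.01, lies lowest.

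The start regions of 4 genes are printed to set the gene that rose and its neighbour, Kcna2 and Kcna3, beside the most abundant pair, Kcnj15 and Kcnj16. They are RefSeq sequences of build GRCr8, 250 bases before to 50 after the annotated start, 5′ to 3′; which start the kidney uses was not measured. Capitals mark the GC box GGGCGG and the CCAAT box CCAAT on either strand, and no marked matches overlap.
Kcna2, chr2:197393280-197393579, strand +: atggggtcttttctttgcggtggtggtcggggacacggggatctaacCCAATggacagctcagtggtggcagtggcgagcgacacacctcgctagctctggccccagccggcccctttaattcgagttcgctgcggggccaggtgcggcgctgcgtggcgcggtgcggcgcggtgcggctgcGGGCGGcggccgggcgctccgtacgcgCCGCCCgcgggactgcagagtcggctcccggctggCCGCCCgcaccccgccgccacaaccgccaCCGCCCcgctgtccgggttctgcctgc
Kcna3, chr2:197320074-197320373, strand +: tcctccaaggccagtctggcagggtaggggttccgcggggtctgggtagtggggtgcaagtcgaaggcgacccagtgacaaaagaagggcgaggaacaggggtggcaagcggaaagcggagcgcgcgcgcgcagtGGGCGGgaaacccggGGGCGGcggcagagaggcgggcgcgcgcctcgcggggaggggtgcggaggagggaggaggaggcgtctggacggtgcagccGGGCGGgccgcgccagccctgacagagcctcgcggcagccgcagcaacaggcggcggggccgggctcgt
Kcnj15, chr11:48070700-48070999, strand +: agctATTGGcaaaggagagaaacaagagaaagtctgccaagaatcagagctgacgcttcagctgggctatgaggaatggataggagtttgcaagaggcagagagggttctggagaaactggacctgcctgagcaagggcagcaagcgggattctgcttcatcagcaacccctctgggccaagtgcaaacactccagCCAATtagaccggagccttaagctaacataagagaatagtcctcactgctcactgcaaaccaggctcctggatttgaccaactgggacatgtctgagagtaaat
Kcnj16, chr10:96517074-96517373, strand +: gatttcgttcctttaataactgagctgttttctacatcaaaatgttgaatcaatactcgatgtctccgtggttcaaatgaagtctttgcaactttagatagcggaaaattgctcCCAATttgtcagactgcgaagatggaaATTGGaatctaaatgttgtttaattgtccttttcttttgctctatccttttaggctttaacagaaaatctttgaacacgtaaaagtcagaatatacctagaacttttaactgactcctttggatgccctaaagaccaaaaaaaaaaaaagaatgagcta
The Kcna2 window held 40 CpG dinucleotides and 4 GC boxes and the Kcna3 window 36 and 3. The Kcnj15 and Kcnj16 windows held 3 and 6 CpG dinucleotides and 0 GC boxes, and 2 CCAAT boxes each, against 1 CCAAT box in Kcna2 and 0 in Kcna3. The median over 33469 RefSeq windows of this length was 7 CpG dinucleotides; 33.1% held a GC box and 37.5% a CCAAT box. The TATA box TATAAA was found in none of the 4 windows and in 14.2% of all. Of the 92 genes 63 had at least 1 window in this table, 69 windows in all, of which 34 held a GC box, 19 a CCAAT box and 2 a TATA box. These matches describe letters and not bound sites.

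Voltage-gated channels. Kcna2 had 190, 124 and 81 counts in CKD 1, 2 and 3, against 14, 9 and 14 in Sham 1, 2 and 3. In CPM (counts per 1000000 assigned counts, scaled between libraries by edgeR's TMM factors) it stood at 6.49 ± 2.52 in CKD and 0.849 ± 0.193 in Sham (SD, n = 3 each), or a log2 difference of 2.92 ± 0.46 (standard error; edgeR adjusted p = 0.0323). Every CKD library lay above every Sham library. The rise stayed between 2.60 and 3.17 with single libraries left out, but the call was lost without CKD 1 (edgeR adjusted p = 0.164), CKD 2 (0.154), Sham 2 (0.06) or Sham 3 (0.106). In the coordinates of the deposited table Kcna2 spans positions 194704639 to 194718400 on the plus strand of chromosome 2, with Kcna3 upstream at 194632196 to 194650138; the build of these coordinates is uncertain.

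Kcna3 encodes Kv1.3, the channel that holds the membrane voltage of T lymphocytes. It had 8.01, 6.66 and 3.94 CPM in CKD 1, 2 and 3, against 0.133, 0.838 and 1.69 CPM in Sham 1, 2 and 3. The groups did not overlap, but with a log2 fold change of 2.80 ± 0.75 it did not pass (edgeR adjusted p = 0.0782). Sham 1, the lowest, rested on 2 counts. Without that library the log2 fold change was 2.25 and the adjusted p 0.043.

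The leukocyte markers were higher in CKD as well. The summed CPM of 8 macrophage markers ran from 228 to 479 in CKD and from 53.0 to 142 in Sham, with 8 of 8 above 0 in fold change and 3 called. The sum of 8 lymphocyte markers ran from 22.2 to 42.4 CPM in CKD and from 6.64 to 8.33 CPM in Sham, with 2 of 7 tested called. Which cells held the Kcna2 RNA was not measured. Among the CKD libraries CKD 1 had the highest and CKD 3 the lowest sum of both lists, and likewise for Kcna2 and Kcna3. Kcnn4, a channel of lymphocytes, macrophages and fibroblasts, was highest in CKD 2, at 11.1 CPM. Among the Sham libraries the order was not shared: Sham 1 had the highest sum of both lists and the lowest Kcna3. The part of leukocyte number in these channel values was not tested; in bulk tissue more cells of a type and more RNA per cell cannot be told apart.

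Kcnq1 encodes the KvLQT1 pore and Kcne1 its small partner minK, which in the mouse work together at the luminal side of the proximal tubule. Kcnq1 had 29.7, 34.1 and 41.5 CPM in CKD 1, 2 and 3, against 24.3, 154 and 51.4 CPM in Sham 1, 2 and 3. Kcne1 had 3.57, 2.43 and 1.43 CPM in CKD, against 1.40, 13.9 and 4.08 CPM in Sham. In both genes Sham 2 stood highest and Sham 1 below every CKD library, so the groups overlapped. Their log2 fold changes were -1.13 ± 0.60 and -1.38 ± 0.79 (edgeR adjusted p = 0.294 and 0.333), or -0.14 and -0.18 without Sham 2.

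Of 28 voltage-gated pore genes 12 were tested. Kcnc4 had 8.21 ± 3.09 CPM in CKD and 18.2 ± 8.97 CPM in Sham (log2 fold change -1.15 ± 0.43). Kcnd1, an A-type channel, had 1.93 ± 0.291 CPM in CKD and 0.90 ± 0.206 CPM in Sham (1.10 ± 0.45), without overlap. Kcnh1, of the ether-a-go-go family, had 0.463 ± 0.0619 CPM in CKD and 1.28 ± 0.836 CPM in Sham (-1.45 ± 0.63). Its groups all but met, at 0.531 CPM in CKD 1 and 0.533 CPM in Sham 1. The listed span of Kcnh1 also overlaps that of Hhat, so its reads are uncertain. Kcnc4, Kcnd1 and Kcnh1 did not pass (edgeR adjusted p = 0.165, 0.188 and 0.212). Kcna5, Kcnd3, Kcnh2 and Kcnq5 had log2 fold changes from -0.73 to 0.070.

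Of 10 silent subunits, which form no channel alone and modify voltage-gated partners, 4 were tested and 0 passed in edgeR (2 at p under 0.05 before adjustment). Kcnf1 had 18, 42 and 19 counts in CKD 1, 2 and 3, against 3, 7 and 2 in Sham 1, 2 and 3, or a log2 difference of 2.22 ± 0.69 (edgeR adjusted p = 0.105). It too reached 10 counts in CKD libraries only. Kcng2 had 1.88, 1.69 and 1.74 CPM in CKD, against 1.60, 10.2 and 6.40 CPM in Sham, or a log2 difference of -1.77 ± 0.63 (edgeR adjusted p = 0.146). The CKD libraries of Kcng2 were nearly alike, while Sham 1 lay below them and Sham 2 and Sham 3 well above. Kcng1 and Kcns3 had log2 fold changes of -1.19 and 0.72.

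Inward rectifiers. Kcnj15 (Kir4.2) and Kcnj16 (Kir5.1) were, by group mean, the most abundant potassium channel genes per length in both groups. Kir5.1 is known as a partner that pairs with Kir4.2 or Kir4.1. Kcnj15 had 727, 926 and 944 CPM in CKD 1, 2 and 3, against 484, 124 and 1121 CPM in Sham 1, 2 and 3. Kcnj16 had 707, 882 and 716 CPM in CKD, against 646, 297 and 1130 CPM in Sham. In both genes Sham 3 was the highest library of all 6 and Sham 2 the lowest. The log2 fold changes were 0.59 ± 0.68 and 0.15 ± 0.48 (edgeR adjusted p = 0.645 and 0.877), and the value of Kcnj16 turned to -0.25 without Sham 2. That of Kcnj15 was 0.076 without Sham 2 and 1.45 without Sham 3. Scaled per kilobase (RPKM, from the authors' gene lengths), Kcnj15 averaged 99.8 ± 13.9 in CKD and 66.4 ± 58.2 in Sham. Kcnj16 averaged 71.8 ± 9.21 in CKD and 64.6 ± 39.1 in Sham. In Sham 2 the pair did not lead: Kcnq1 had 40.8 RPKM there, against 27.8 for Kcnj16 and 14.3 for Kcnj15. Per length Kcnj15 stood above Kcnj16 in every CKD library and in Sham 3, and below it in Sham 1 and Sham 2. Whether the pair differed from each other was not tested.

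The pair together held 67.3% to 73.7% of all potassium channel counts in the CKD libraries, and 60.8%, 28.8% and 75.6% in Sham 1, 2 and 3. All 92 genes took 0.253% to 0.282% of the assigned counts in CKD, and 0.16%, 0.122% and 0.266% in Sham 1, 2 and 3. Sham 2 was thus the library with the smallest share and the one in which the usual leading pair was in the minority.

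Kcnj10 (Kir4.1) sits on the blood side of the distal convoluted tubule, where it senses plasma potassium, and its loss in people causes salt wasting. It had 35.9, 34.2 and 43.3 CPM in CKD 1, 2 and 3, against 38.2, 164 and 88.8 CPM in Sham 1, 2 and 3. Sham 1 lay within the CKD range and the others above it, and with a log2 fold change of -1.36 ± 0.47 the gene did not pass (edgeR adjusted p = 0.136). Without Sham 1 the log2 fold change was -1.80 and the adjusted p 0.0265, and without Sham 2 it was -0.78. The RPKM ratio of Kcnj10 to Kcnj16 was 0.0924, 0.0706 and 0.11 in CKD, and 0.108, 1.01 and 0.143 in Sham 1, 2 and 3. The ratio of Kcnj15 to Kcnj16 was 1.27, 1.29 and 1.62 in CKD, and 0.924, 0.516 and 1.22 in Sham 1, 2 and 3.

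Markers of nephron segments moved with these libraries. The summed CPM of 10 proximal tubule markers ran from 11034 to 15331 in CKD, and was 16731, 6350 and 21961 in Sham 1, 2 and 3. The sum of 6 distal convoluted tubule markers ran from 778 to 902 CPM in CKD, and was 291, 3866 and 1446 CPM in Sham 1, 2 and 3. Principal cell markers summed to 472 to 604 CPM in CKD, and to 544, 2522 and 752 CPM in Sham 1, 2 and 3, and intercalated cell markers to 343 to 615 CPM in CKD, and to 474, 3225 and 930.1 CPM in Sham 1, 2 and 3. Sham 2, low in Kcnj15 and high in Kcnj10 and Kcnq1, was thus also low in proximal and high in distal markers, and high in mitochondrial counts. The mitochondrial genome gave 8.88%, 8.83% and 10.8% of the counts in CKD 1, 2 and 3, against 14.4%, 37.9% and 15.3% in Sham 1, 2 and 3, so every Sham library lay above every CKD library. No marker of these lists was at 0 in a library except Pvalb and Avpr2, which were listed at 0 in all 6. The part of tissue makeup and of the mitochondrial share in the channel values was not tested.

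**Figure D2:**
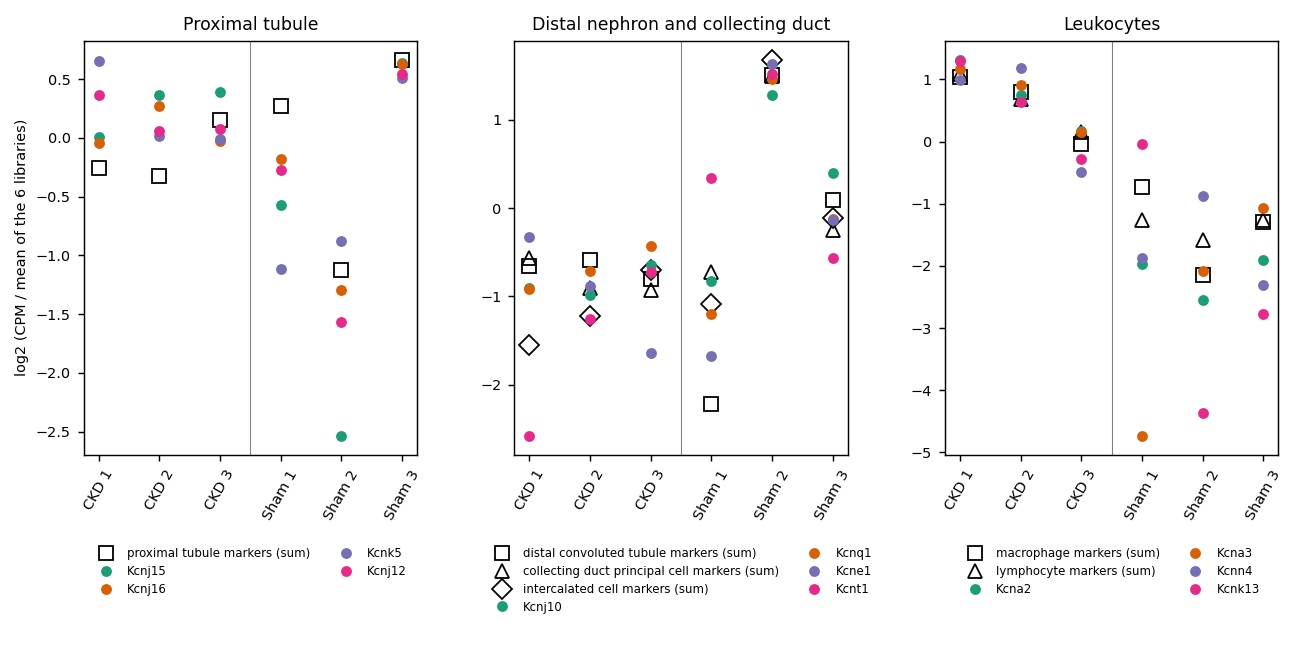
Log2 of CPM over the mean of the 6 libraries (vertical axis) in each library, for summed cell type markers (open black symbols) and for channel genes (filled), which were placed in the panels after their values were seen. Sham 2 lies below the other libraries in proximal tubule markers, Kcnj15, Kcnj16 and Kcnj12, but not in Kcnk5, where Sham 1 is lowest. Sham 2 lies above the others in the distal markers, Kcnj10, Kcnq1, Kcne1 and Kcnt1. Kcnq1 and Kcne1 are drawn beside distal markers, although in the mouse they work together in the proximal tubule. Leukocyte marker sums are higher in the 3 CKD libraries than in the 3 Sham libraries. The panels do not show which cells expressed a channel gene.

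Kcnj1 encodes ROMK, the secretory channel of the thick ascending limb and collecting duct. It had 151, 165 and 247 CPM in CKD 1, 2 and 3, against 270.1, 284 and 134 CPM in Sham 1, 2 and 3. The groups overlapped, since Sham 3 was the lowest library, and the log2 fold change was -0.29 ± 0.35 (edgeR adjusted p = 0.661), or 0.14 with library totals alone. Thick ascending limb markers summed to 1683, 3305 and 3962 CPM in CKD, against 9886, 7910 and 3835 CPM in Sham, so Kcnj1 stood lowest in CKD 1 and Sham 3, the libraries lowest in those markers within their groups. The table lists another gene, LOC120094481, within the span of Kcnj1, so some of its reads may be assigned uncertainly.

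Kcnj12 (Kir2.2) and Kcnj2 (Kir2.1) are classical strong rectifiers. Kcnj12 had 84.9 ± 10.4 CPM in CKD and 65.9 ± 42.2 CPM in Sham, with a log2 fold change of 0.37 that became -0.057 without Sham 2. Kcnj2 had 9.43 ± 1.12 CPM in CKD and 8.26 ± 4.33 CPM in Sham, with a log2 fold change of 0.19 that became -0.23 without Sham 1. Neither passed (edgeR adjusted p = 0.673 and 0.83).

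Kcnj8 and Kcnj11 form the pores of ATP-sensitive channels, with the sulfonylurea receptors Abcc9 (mainly vascular) and Abcc8 as partners. Kcnj8 had 12.3, 14.6 and 11.3 CPM in CKD 1, 2 and 3, against 6.47, 4.82 and 11.3 CPM in Sham 1, 2 and 3. The highest Sham library all but met the lowest CKD library, and the log2 fold change was 0.76 ± 0.36 (edgeR adjusted p = 0.246). Abcc9 had 40.6 ± 4.15 CPM in CKD and 19.8 ± 15.3 CPM in Sham (1.03 ± 0.74, edgeR adjusted p = 0.435). Sham 2 stood at 2.24 CPM, against 30.3 and 27.0 CPM in Sham 1 and Sham 3, and without Sham 2 the log2 fold change was 0.46. Kcnj11 had 0.593 ± 0.199 CPM in CKD and 1.62 ± 1.77 CPM in Sham, with a log2 fold change of -1.44, or -0.055 without Sham 1, the library with 55 of its counts. Mural cell markers summed to 492 to 551 CPM in CKD and 305 to 365 CPM in Sham, with 0 of 8 called in edgeR (3 at p under 0.05 before adjustment). The list was split. Des, Tagln, Pdgfrb and Mylk had log2 fold changes of 1.26, 1.26, 1.06 and 0.61. Acta2, Rgs5, Cnn1 and Myh11 had 0.087, 0.17, 0.44 and -0.59, with overlap in each.

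Kcnj13 (Kir7.1) had 0.917, 0.497 and 0.82 CPM in CKD 1, 2 and 3, against 1.27, 2.59 and 1.62 CPM in Sham 1, 2 and 3, and Kcnj14 (Kir2.4) 1.45, 0.646 and 0.717 CPM in CKD, against 2.0, 3.63 and 1.69 CPM in Sham. The groups of both genes did not overlap, with log2 fold changes of -1.28 ± 0.51 and -1.37 ± 0.55 (edgeR adjusted p = 0.182 and 0.181). Both lie across other genes in the table (Kcnj13 within Gigyf2, Kcnj14 with 8 others in its listed span), so their reads are uncertain. The G protein-gated members Kcnj3, Kcnj5 and Kcnj9 had log2 fold changes of 0.93, 0.81 and 0.49, with overlap in each (edgeR adjusted p = 0.592, 0.355 and 0.811). The value of Kcnj3 was 0.32 without Sham 2, and that of Kcnj9 turned to -0.15 without Sham 1. In all, 13 of 15 inward rectifiers were tested, 0 passed in edgeR, 3 had an unadjusted p under 0.05, and 8 fold changes were above 0.

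**Figure D3:**
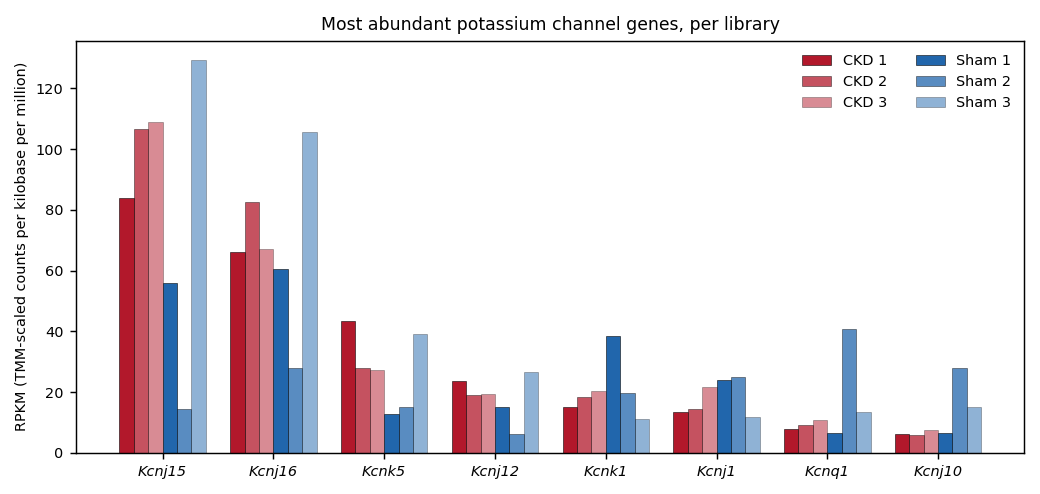
RPKM (CPM per kilobase of gene length, vertical axis from 0) of the 8 most abundant potassium channel genes in CKD, 1 bar for each library, CKD in red and Sham in blue. Kcnj15 and Kcnj16 lead in CKD, at means of 99.8 and 71.8, and the Sham bars of each gene are more uneven than the CKD bars.

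Tandem-pore channels. Kcnk5 encodes TASK-2, an alkali-activated channel on the blood side of the proximal tubule. It had 150.0, 96.4 and 94.9 CPM in CKD 1, 2 and 3, against 44.0, 52.1 and 136 CPM in Sham 1, 2 and 3. Sham 3 lay among the CKD libraries and the other Sham libraries below them, and the log2 fold change was 0.56 ± 0.45 (edgeR adjusted p = 0.489). It was 0.24 without Sham 1, 0.30 without Sham 2 and 1.17 without Sham 3. Kcnk1, which encodes TWIK-1, had 32.9, 40.6 and 45.2 CPM in CKD, against 85.0, 43.8 and 24.6 CPM in Sham, with a log2 fold change of -0.37 ± 0.42, or 0.16 without Sham 1 and 0.055 with library totals alone (edgeR adjusted p = 0.635). Per length, Kcnk5 averaged 32.8 ± 9.06 RPKM in CKD and 22.3 ± 14.7 RPKM in Sham, and Kcnk1 17.9 ± 2.80 RPKM in CKD and 23.2 ± 14.0 RPKM in Sham.

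Kcnk6 encodes TWIK-2, through which potassium leaves mouse macrophages when the NLRP3 inflammasome is activated. It had 227, 182 and 142 counts in CKD 1, 2 and 3, against 65, 79 and 26 in Sham 1, 2 and 3. The groups did not overlap, and the log2 fold change of 1.22 ± 0.44 did not pass (edgeR adjusted p = 0.15). Kcnk13, which encodes THIK-1 of microglia, had 73, 45 and 23 counts in CKD, against 21, 1 and 3 in Sham, log2 fold change 2.02 ± 0.95 (edgeR adjusted p = 0.242; 3.93 with an adjusted p of 0.0382 without Sham 1).

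Kcnk2, which encodes the stretch-sensitive TREK-1, had 3.06 ± 0.816 CPM in CKD and 0.999 ± 0.821 CPM in Sham, without overlap (log2 fold change 1.61 ± 0.67, edgeR adjusted p = 0.20). Kcnk3, TASK-1, had 0.57 ± 0.503 CPM in CKD and 1.14 ± 0.699 CPM in Sham (-1.0 ± 0.84, edgeR adjusted p = 0.511). Kcnk4, Kcnk10 and Kcnk12 had at most 48 counts in a library and log2 fold changes of -0.36, 0.23 and -0.53. Of 14 tandem-pore genes 9 were tested, 0 passed in edgeR and 2 had an unadjusted p under 0.05, both higher in CKD.

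Calcium- and sodium-activated channels. Kcnn4 encodes KCa3.1, which lymphocytes, macrophages and fibroblasts open when calcium rises. It had 201, 223 and 68 counts in CKD 1, 2 and 3, against 20, 38 and 14 in Sham 1, 2 and 3. Every CKD library lay above every Sham library, with 8.09 ± 4.05 CPM in CKD and 1.66 ± 0.881 CPM in Sham, and the log2 fold change of 2.28 ± 0.58 did not pass (edgeR adjusted p = 0.0703).

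Kcnt1 encodes the sodium-activated channel Slack. It had 6.95, 17.3 and 25.2 CPM in CKD 1, 2 and 3, against 52.7, 119 and 28.2 CPM in Sham 1, 2 and 3. The groups did not overlap, though CKD 3 lay close to Sham 3, and the log2 fold change of -2.01 ± 0.62 did not pass (edgeR adjusted p = 0.105; -1.33 without Sham 2). It had the lowest fold change of all tested potassium channel genes.

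Kcnma1, the pore of the BK channel that secretes potassium at high tubular flow, had 3.74 ± 0.331 CPM in CKD and 4.11 ± 2.22 CPM in Sham (log2 fold change -0.14 ± 0.45, edgeR adjusted p = 0.884; 0.35 without Sham 2 and 0.30 with library totals alone). Its accessory subunits were scarce. Kcnmb1 had 21, 13 and 21 counts in CKD, against 8, 7 and 9 in Sham. Kcnmb4, which did not enter the edgeR test, had 9, 39 and 16 counts in CKD, against 1, 3 and 2 in Sham. Kcnmb1 lies within Kcnip1 on the other strand, and whether counting used strand is not stated. Kcnn1 and Kcnn2 had log2 fold changes of -0.58 and -0.50.

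**Figure D4:**
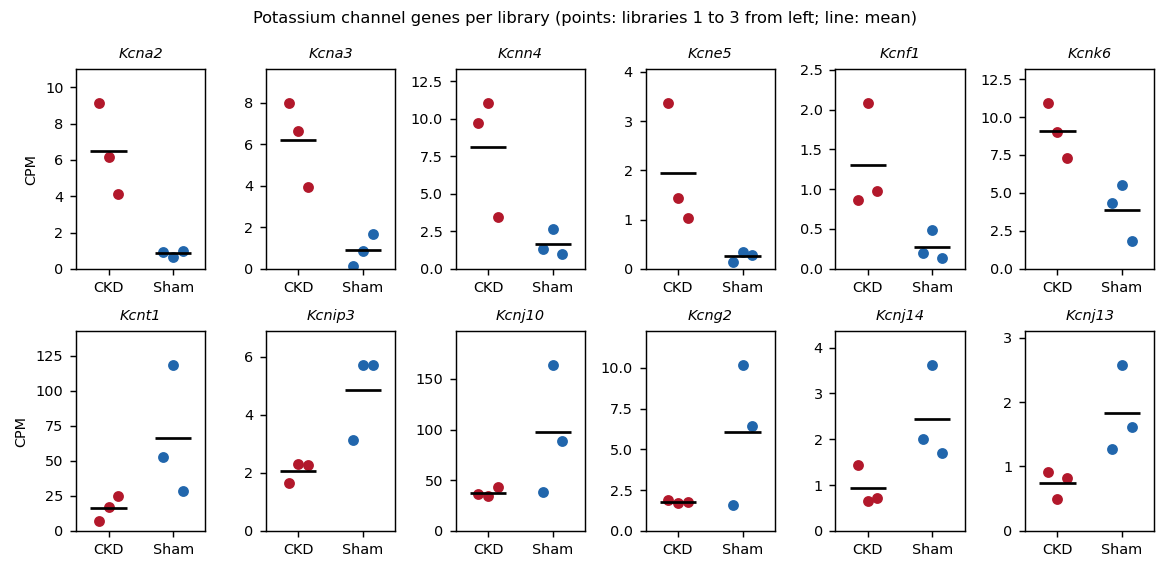
CPM in each library (vertical axes from 0, points for libraries 1 to 3 from left, lines for means) of 12 potassium channel genes, CKD left of Sham. In the upper row every CKD point lies above every Sham point; in the lower row the groups of Kcnj10 and Kcng2 overlap because Sham 1 lies among or below the CKD points.

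Accessory subunits. Kcne5, a small modulator of Kcnq1, had 70, 29 and 20 counts in CKD 1, 2 and 3, against 2, 5 and 4 in Sham 1, 2 and 3. The gene met the count rule through the CKD libraries alone, so the lack of overlap carries little weight. Its log2 fold change of 2.91 ± 0.69 did not pass (edgeR adjusted p = 0.0615). Kcnab2, a cytoplasmic beta subunit, had 3.02 ± 0.94 CPM in CKD and 1.18 ± 0.608 CPM in Sham (1.34 ± 0.52, edgeR adjusted p = 0.174), without overlap. Kcnip3, a calcium sensor also known as DREAM, had 1.64, 2.29 and 2.25 CPM in CKD, against 3.13, 5.73 and 5.70 CPM in Sham. Its groups did not overlap either, and its log2 fold change of -1.23 ± 0.41 did not pass (edgeR adjusted p = 0.121; 0.0453 without Sham 1). Kcnip1 had a log2 fold change of 0.50 ± 0.55 and overlapped.

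Kcne3 had 10, 10 and 13 counts in CKD 1, 2 and 3, against 1, 5 and 3 in Sham 1, 2 and 3. Kcne3 is labelled a long non-coding RNA in the deposited annotation, so its counts may not be of RNA that encodes the subunit. It met the count rule only through the CKD libraries, failed the filter of the test and is given by its counts alone; Kcnmb4, with 10 or more counts in 2 libraries, fell just outside the rule. Kcnab1, Kcne2, Kcne4, Kcnip2 and Kcnip4 had log2 fold changes from -1.05 to -0.02. Of 17 accessory genes 11 were tested, 0 passed in edgeR, and 3 had an unadjusted p under 0.05.

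The other 37 of the 92 genes did not reach the count rule. Of these Kcna10, Kcnh5, Kcnh7, Kcnj6 and Kcnu1 were listed at 0 in all 6 libraries, and the highest count in any library among the 37 was 39, of Kcnmb4. Most belong to the voltage-gated pores (16 of 28), the silent subunits (6 of 10) and the accessory and tandem-pore genes (5 each). The number of the 92 genes with at least 10 counts was 57, 51 and 54 in CKD 1, 2 and 3, against 44, 47 and 45 in Sham 1, 2 and 3. These numbers rest on raw counts, without the TMM factors (1.13 to 1.19 in CKD, 0.837 to 0.893 in Sham). The same number over all genes was not computed, so they are no result about channel genes.

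Partners and regulators. Genes that work with these channels but carry other symbols were grouped by role. Of 14 partners 7 were tested, and 1 fell, Hcn3, a cation channel of the hyperpolarisation-activated family. It had 5.35, 4.22 and 4.61 CPM in CKD 1, 2 and 3, against 20.5, 31.5 and 15.91 CPM in Sham 1, 2 and 3, or a log2 difference of -2.26 ± 0.32 (edgeR adjusted p = 0.0302). The call was lost without CKD 1 (edgeR adjusted p = 0.152), CKD 2 (0.153), Sham 2 (0.0552) or Sham 3 (0.0952), while the log2 fold change stayed between -2.53 and -1.98. Its span in the table overlaps Pklr, so some reads may be shared. Abcc8 had 0.962 ± 0.912 CPM in CKD and 6.75 ± 5.50 CPM in Sham (edgeR adjusted p = 0.144). The partners' median log2 fold change was -0.21, or 0.20 with library totals alone.

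Of 28 regulators of potassium balance and distal transporters 25 were tested, 0 rose and 1 fell, and 20 had fold changes below 0 (median log2 fold change -0.74, against -0.01 over all genes). Atp12a, the colonic type of proton-potassium pump, fell, with 1.5, 1.69 and 1.43 CPM in CKD 1, 2 and 3, against 5.87, 12.6 and 5.21 CPM in Sham 1, 2 and 3 (log2 fold change -2.35 ± 0.45, edgeR adjusted p = 0.0415). That call was lost without CKD 1 (edgeR adjusted p = 0.172), CKD 2 (0.173), CKD 3 (0.085), Sham 2 (0.0603) or Sham 3 (0.101). Sgk1, the aldosterone-induced kinase that raises sodium uptake and potassium secretion, had 215 ± 57.2 CPM in CKD and 742 ± 397 CPM in Sham, without overlap, and did not pass (-1.79 ± 0.45, edgeR adjusted p = 0.0684; 0.0286 without Sham 1). Without Sham 2 the list's median was -0.15.

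**Figure D5:**
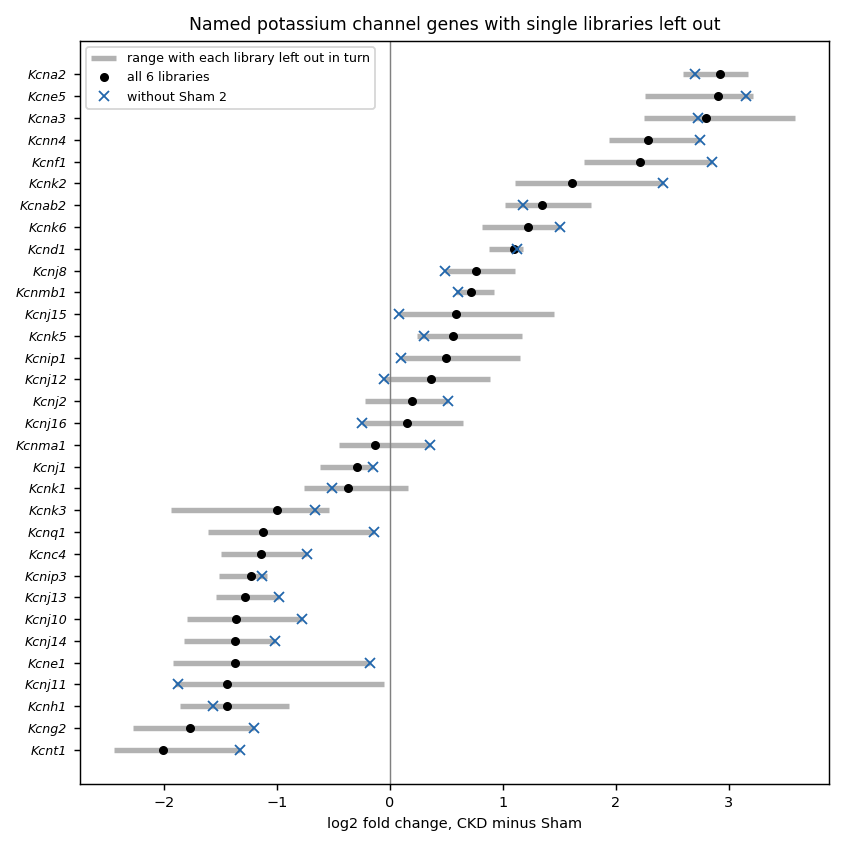
Log2 fold change (CKD minus Sham, horizontal axis) of the 32 named and tested potassium channel genes with all 6 libraries (black points), the range with each library left out in turn (grey bars) and the value without Sham 2 (blue crosses). Kcna2 stays between 2.60 and 3.17, while the bars of Kcnj16, Kcnj12, Kcnj2, Kcnma1 and Kcnk1 cross 0.

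Single libraries weighed on many of these values. With each library left out in turn, 37 of the 54 tested genes kept the sign of their fold change and 17 did not. The number called was 6 without Sham 1, where 10.8% of all genes tested were called (4.96% higher, 5.8% lower). These 6 were Kcna2, Kcna3 and Kcnk13 higher, and Kcnj10, Kcng2 and Kcnip3 lower. In that setting Kcnk13 reached 10 counts in CKD libraries only, with 1 and 3 counts in Sham 2 and Sham 3. Its call thus carries little weight. Without CKD 3 the number called was 1 (Kcna2). It was 0 without CKD 1, CKD 2, Sham 2 or Sham 3 in edgeR, where 8, 6, 10 and 12 genes had an unadjusted p under 0.05. With library totals alone as the scale, the median log2 fold change over all genes lay 0.42 higher; 34 of the 54 genes were then above 0, and 6 were called, all higher (Kcna2, Kcna3, Kcne5, Kcnf1, Kcnk6 and Kcnn4), where 13.3% of all genes were called higher; Kcne5 and Kcnf1 had entered through CKD libraries only. DESeq2 called 9 potassium channel genes, or 12.3% of 73 with an adjusted p, and 13.5% of all genes (7.51% higher, 6.01% lower). These were Kcna2, Kcna3, Kcne5, Kcnmb4 and Kcnn4 higher and Kcng2, Kcnip3, Kcnj10 and Kcnt1 lower. Kcne5 and Kcnmb4 reached 10 counts in CKD libraries only, and Kcnmb4 fell outside the count rule, so their calls carry little weight.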

How the data were processed

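Per the labels' protocols, TRIzol was used for RNA extraction and a VAHTS Universal V5 kit for the libraries. A table deposited by the authors holds unnormalized whole-number counts for each gene and a gene length without a named unit, read here as bases. HTSeq 0.11.2, HISAT2 2.1.0, fastp 0.20.1 and Rnor_6.0 are named, per the submitters' processing notes, without role or order. No strand setting is stated. Columns were matched to libraries by title.

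Genes passing edgeR's filterByExpr (minimum count 10, minimum total 15) were fitted with TMM factors (1.13 to 1.19 in CKD, 0.837 to 0.893 in Sham) in a robust quasi-likelihood model with group as its only term (edgeR 4.0.16, limma 3.58.1, R 4.3.3), adjusted by Benjamini-Hochberg over 15371 genes at 0.05. The standard error is the log2 fold change divided by the root of F. CPM and RPKM were computed here from the deposited counts. No pair of replicates matched within sampling noise (chi-square over degrees of freedom 32.9 to 356). The model was tested on simulated data. Alternatives were RLE factors, library totals alone, no filter, DESeq2 1.42.0, removal of mitochondrial genes, a replicate block and each library left out.

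Genes and lists were chosen with earlier results of these data known. Named genes were those past the threshold, the 8 smallest p in each direction, a list of renal, vascular and immune channels, and the 5 highest RPKM in either group; of each partner list, the 2 smallest p and any past the threshold. Kcnk13, Kcng1, Abcc9 and members given by fold change alone were named after their values were seen. Some genes are not reported here.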

Additional observations from a re-analysis of the deposited data

How the results depend on the processing

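Of the tested values of 32 named potassium channel genes under 12 alternatives, 355 kept direction and call, 8 turned sign, 5 lost the call and 16 gained one. The log2 fold changes that turned, with single libraries left out, ran from -0.25 to 0.64 (Kcnj16), -0.057 to 0.89 (Kcnj12), -0.76 to 0.16 (Kcnk1), -0.23 to 0.51 (Kcnj2) and -0.45 to 0.35 (Kcnma1), the turned value being the one without Sham 2 in Kcnj16, Kcnj12 and Kcnma1 and without Sham 1 in Kcnk1 and Kcnj2. With library totals alone they were 0.14 (Kcnj1), 0.055 (Kcnk1) and 0.30 (Kcnma1); none of these genes was called. With all libraries 587 genes were called in edgeR, 1 of them a potassium channel gene, 1 a partner and 1 a regulator of potassium balance. Library totals alone gave 2228 genes and 6 potassium channel genes. DESeq2 gave 2440 genes, 9 potassium channel genes, 2 partners and 5 regulators. The regulators were 2 without a filter. With each library left out, the counts ran from 0 to 1711 genes, 0 to 6 potassium channel genes, 0 to 1 partners and 0 to 4 regulators; without CKD 1 or CKD 2, where edgeR called 0 genes, 2330 and 2312 had an unadjusted p under 0.05. The cause was not tested.

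What a shared library number means is not stated, so the numbers were not read as pairs. Deviations of same-numbered libraries from their group means had correlations across genes of -0.206, 0.0045 and -0.157 for numbers 1, 2 and 3. With so few libraries in a group, these correlations cannot show whether pairs exist. With the replicate block edgeR called 10 genes, 0 potassium channel genes (12 at an unadjusted p under 0.05), 0 partners and 0 regulators, and Kcna2 had an adjusted p of 0.0687. Of the 37 potassium channel genes under the count rule none held more than 39 counts in a library, which limits what could be compared in them.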

Other observations

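Channel genes outside the Kcn symbols were looked up by the descriptions in the deposited table, after the values of the other genes were seen. Ccdc51, described there as the mitochondrial potassium channel, had 8.63, 10.9 and 10.5 CPM in CKD 1, 2 and 3, against 6.0, 5.66 and 2.18 CPM in Sham 1, 2 and 3. The groups did not overlap, and with a log2 fold change of 1.11 ± 0.42 it did not pass (edgeR adjusted p = 0.159). Its ATP-binding partner Abcb8 had 48.9 ± 0.919 CPM in CKD and 61.7 ± 20.7 CPM in Sham (SD, n = 3 each), log2 fold change -0.33 ± 0.26 (edgeR adjusted p = 0.468) and Sham 2 below all CKD libraries. A gene without a Kcn symbol, AC125757.1, described as the rat Kcnb2 channel, had 11, 0 and 8 counts in CKD 1, 2 and 3, against 5, 4 and 0 in Sham 1, 2 and 3, and was not tested.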
